A study of Mus musculus with 6 samples.

Results

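Aminoacyl-tRNA synthetases are the enzymes that join each amino acid to its transfer RNA before translation. The 36 synthetase genes described here were taken from a list of 20 cytosolic genes and 16 mitochondrial ones (symbols ending in 2), and all 36 were present among the 46517 gene identifiers of each table. They were measured by poly(A) RNA sequencing of CD8 T cells, in a comparison of T cells given basophil supernatant made with or without IL-3, a cytokine that activates basophils (rare granulocytes). The T cells were naive cells from the spleen and lymph nodes of C57BL/6J mice, stimulated for 3 days on plates coated with anti-CD3 at 5 µg/mL, with anti-CD28 at 0.5 µg/mL and IL-2 at 100 units/mL, and received basophil supernatant between day 1 and day 2. In the IL-3 supernatant group (n = 3 libraries) the basophils were first cultured for 2 days in IL-2 at 100 units/mL and IL-3 at 3 ng/mL, and in the PBS supernatant group (n = 3 libraries) with IL-2 and PBS. Both groups therefore received basophil supernatant and IL-2, no group without supernatant was among the samples, and the labels do not say that IL-3 was removed from the supernatant. Nothing in the labels ties a replicate to a mouse or culture of its own. The p-values thus rest on the variation among these libraries, and that variation may be technical.

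Each cytosolic synthetase charges the tRNAs of 1 amino acid, except that Eprs charges those of glutamate and proline, and Farsa and Farsb encode the subunits of 1 enzyme. Mitochondria translate their few messages with a separate set of synthetases that nuclear genes encode and that are imported, while Gars and Kars serve both compartments. The enzymes of 8 cytosolic genes (Dars, Eprs, Iars, Kars, Lars, Mars1, Qars and Rars) are held in a multi-synthetase complex by the scaffold proteins that Aimp1, Aimp2 and Eef1e1 encode. Uncharged tRNA activates the kinase GCN2 (Eif2ak4), which favours translation of the transcription factor ATF4, and ATF4 is known for inducing amino acid synthesis, amino acid transport and many cytosolic synthetases.

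Expected counts summed to between 17377052 and 22174902 per library. CPM below are counts scaled to the TMM-adjusted library size, and TPM are the authors' values, scaled for transcript length as well. Depending on the library, 0 counts allow a level of up to 0.135 to 0.173 CPM (3 counts, counting error only). PBS supernatant replicate 2 stood apart on the second principal component (14.7% of variance, after 63.0% on the first, which separated the groups), and the ribosomal RNA gene CT010467.1 took 4.51% of its counts against 0.433% to 2.2% in the other 5 libraries. All 9 CD8 T cell markers were present, at a summed 2920 to 3121 CPM with PBS supernatant and 2005 to 2189 CPM with IL-3 supernatant. In all of them but Lck the IL-3 values lay below the PBS values, by unlike amounts. Cd8a went from 850 ± 41.1 to 377 ± 15.5 CPM, Cd2 from 274 ± 4.59 to 228 ± 14.4 CPM, and Lck was at 485 ± 12.2 and 472 ± 24.1 CPM. Cd4 stayed below 1 CPM in every library. The basophil and mast cell list summed to under 1 CPM in every library, with Mcpt8, Prss34, Fcer1a and Ms4a2 at 0 counts in all 6, and the myeloid list of 8 genes summed to at most 0.610 CPM. The B cell list summed to 292 to 324 CPM and 110 to 131 CPM, nearly all of it Ighm (307 ± 16.2 and 117 ± 10.8 CPM), with Cd79a, Ms4a1 and Pax5 below 0.5 CPM. The CD4 list summed to 6.44 to 9.29 CPM and 17.9 to 19.8 CPM, most of it Zbtb7b (6.36 ± 1.72 and 17.99 ± 1.29 CPM). The means of its other genes were lower with IL-3 supernatant. Cd40lg was at 0.913 ± 0.373 and 0.385 ± 0.144 CPM (not called), and Cd4 at 0.692 ± 0.214 and 0.301 ± 0.264 CPM. The dendritic cell list summed to 3.14 to 5.06 CPM and 5.92 to 8.17 CPM, most of it Zbtb46 (3.82 ± 0.988 and 6.35 ± 1.22 CPM), with Siglech at 0. The NK and innate lymphoid list summed to 14.9 to 22.8 CPM and 9.63 to 11.7 CPM. In that list Il1rl1 went from 15.4 ± 4.34 to 6.65 ± 0.752 CPM and Rora from 3.06 ± 0.493 to 4.09 ± 1.22 CPM, with Ncr1 and Klrb1c below 0.5 CPM. The part of these shifts in the synthetase values was not tested, and in bulk RNA fewer cells of a type and less RNA per cell cannot be told apart.

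With IL-3 basophil supernatant, 12 of the 20 cytosolic synthetase transcripts rose, by 1.14-fold (Farsa) to 1.53-fold (Lars), 1 fell (Vars, the valine enzyme) and 7 did not pass. Of the 16 mitochondrial synthetases 1 rose (Aars2), 1 fell (Tars2) and 14 did not pass. The calls are those of edgeR's quasi-likelihood test with Benjamini-Hochberg adjusted p below 0.05 over 12407 genes tested, of which 14.8% were higher and 16.1% lower, 30.9% in all. Every one of the 36 genes passed the filter on low counts. The median log2 fold change was 0.23 for the cytosolic genes, 0.00 for the mitochondrial genes and -0.00 for all genes tested. Without PBS replicate 2, which stood apart, 11 cytosolic genes rose and none fell, 0 mitochondrial genes rose and 1 fell. No member reached a 2-fold change, and none of the 15 called members changed sign in the 20 alternatives tried.

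**Figure D1:**
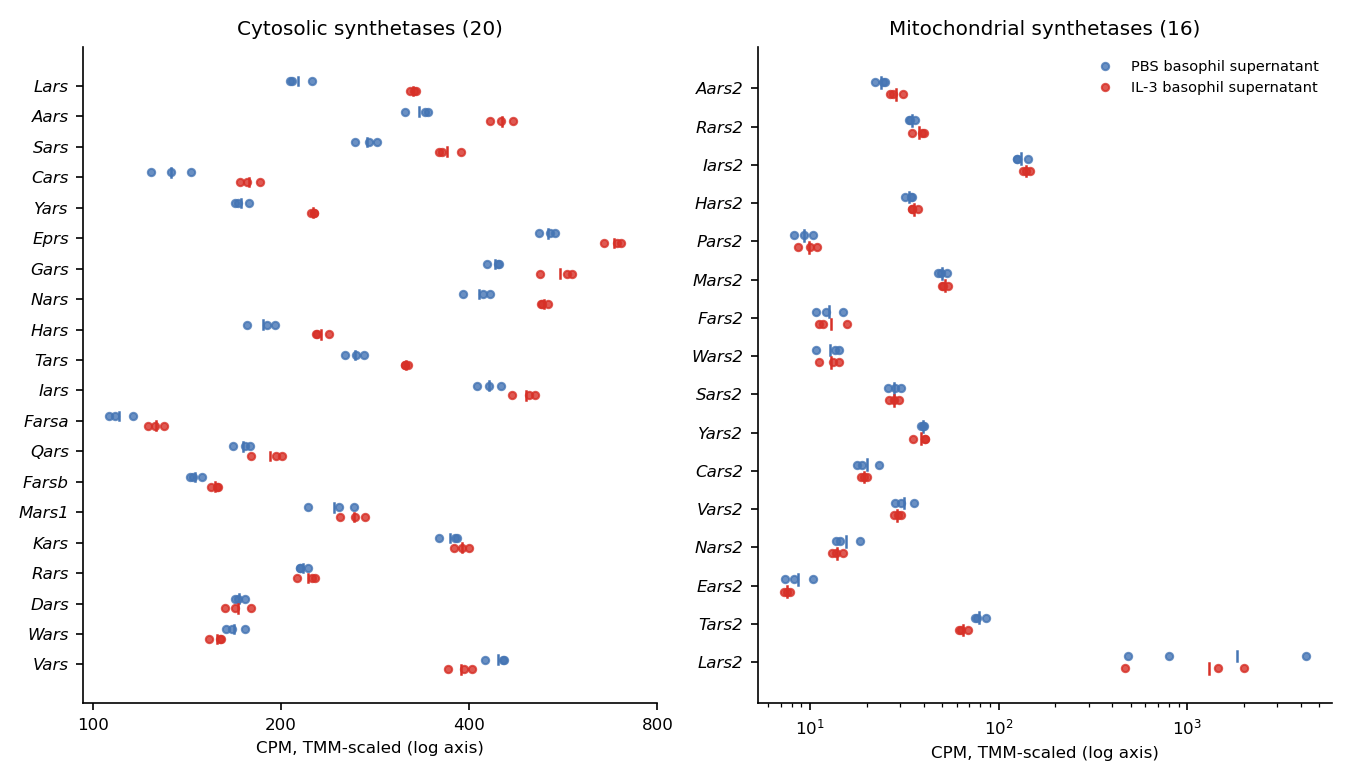
Each point is 1 library's CPM (TMM-scaled, log axis) for 1 gene, in blue for PBS and red for IL-3 basophil supernatant (3 libraries each), with a tick at the group mean, and genes ordered by fold change. The red points lie to the right of the blue ones for 14 of the 20 cytosolic genes and for 1 of the 16 mitochondrial genes, Aars2, and the Lars2 points spread over 9.07-fold. They lie to the left for 2 cytosolic genes and 1 mitochondrial gene. Among all genes tested, the IL-3 values lay above the PBS values in 21.0% and below them in 22.6%.

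The leucine enzyme had the highest fold change of the cytosolic members. Lars (ENSMUSG00000024493, chromosome 18, 42202298 to 42262194, GRCm38) stood at 208, 224 and 207 CPM with PBS supernatant and 321, 326 and 329 CPM with IL-3 supernatant, and its lowest IL-3 value was well above its highest PBS value. On the log2 scale the change was 0.61 with an SE of 0.05 (edgeR adjusted p = 1.0e-07). Aars (ENSMUSG00000031960, chromosome 8, 111033144 to 111057664), the alanine enzyme, followed at 339, 344 and 315 CPM with PBS supernatant and 470.0, 433 and 450.0 CPM with IL-3 supernatant, again with no overlap (log2 0.44, SE 0.05, adjusted p = 8.4e-06). The serine enzyme gene Sars (ENSMUSG00000068739, chromosome 3, 108424865 to 108445209) was at 285, 276 and 263 CPM with PBS supernatant and 388, 362 and 358 CPM with IL-3 supernatant (log2 0.43, SE 0.05). Cars, for cysteine, went from 133, 144 and 124 to 185, 172 and 176 CPM (log2 0.41, SE 0.06), and Yars, for tyrosine, from 170.4, 178 and 169 to 226, 223 and 226 CPM (log2 0.38, SE 0.05). Neither gene's groups overlapped. These 5 genes kept their call in all 20 alternatives tried, including a test against a fold of 1.2.

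Another 5 cytosolic genes kept their call in all alternatives but that test against a fold of 1.2. Eprs, whose product is the only one here with both a class I and a class II catalytic domain, was the cytosolic member with the most counts per library, at 538, 549 and 517 CPM with PBS supernatant and 688, 658 and 698 CPM with IL-3 supernatant (log2 0.35, SE 0.05, edgeR adjusted p = 4.2e-05). Gars, for glycine, was at 444, 446 and 428 CPM with PBS supernatant and 584, 519.7 and 573 CPM with IL-3 supernatant (log2 0.35, SE 0.05), with IL-3 replicate 2 the lowest of its group but above all PBS values. Nars, for asparagine, went from 431, 421 and 390.4 to 524, 522 and 535 CPM (log2 0.35, SE 0.05). The groups were apart in both genes. Hars, for histidine, went from 176, 195 and 190.3 to 228, 229 and 239 CPM (log2 0.31, SE 0.06), and Tars, for threonine, from 272, 263 and 253 to 319, 316 and 315 CPM (log2 0.27, SE 0.05), where the IL-3 libraries again lay close together.

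The other calls among cytosolic genes were small and were lost when single libraries were left out. Iars, for isoleucine, went from 429.8, 449 and 412 to 499, 469 and 509 CPM (log2 0.19, SE 0.05, edgeR adjusted p = 0.011), and the call was lost without PBS replicate 3 (adjusted p = 0.077), IL-3 replicate 1 (adjusted p = 0.051) or IL-3 replicate 3 (adjusted p = 0.068). Farsa, the alpha subunit for phenylalanine, went from 106, 109 and 116 to 130.1, 122 and 126 CPM (log2 0.19, SE 0.06, adjusted p = 0.018), and lost the call without PBS replicate 2 (adjusted p = 0.056) or IL-3 replicate 1 (adjusted p = 0.079). Its partner Farsb, the beta subunit, stood at 145, 143 and 149 CPM with PBS supernatant and 158, 158 and 154 CPM with IL-3 supernatant, apart in the same direction but not past the threshold (log2 0.10, SE 0.05, adjusted p = 0.15). Vars was the cytosolic member that went the other way, from 423, 454 and 455 to 404, 369 and 392 CPM, with all IL-3 values below all PBS values (log2 -0.19, SE 0.05, adjusted p = 0.012). That call was lost without PBS replicate 2 (adjusted p = 0.078), PBS replicate 3 (adjusted p = 0.062) or IL-3 replicate 2 (adjusted p = 0.082).

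Wars, for tryptophan, a gene long known as induced by interferon-gamma, was at 167, 175 and 164 CPM with PBS supernatant and 160.1, 154 and 160.3 CPM with IL-3 supernatant. All IL-3 values lay below the PBS values, but the difference did not pass (log2 -0.09, SE 0.05, edgeR adjusted p = 0.21). Qars, for glutamine, was at 168, 178 and 175 CPM with PBS supernatant and 197, 179 and 201 CPM with IL-3 supernatant, apart upward by a small margin (log2 0.15, SE 0.06, adjusted p = 0.066), and it passed without IL-3 replicate 2 (adjusted p = 0.014). The other 4 cytosolic genes overlapped between groups. Kars (lysine) was at 358, 382 and 379.8 CPM with PBS supernatant and 390.0, 378 and 399 CPM with IL-3 supernatant (log2 0.06, SE 0.05), and Rars (arginine) at 214, 221 and 215 CPM with PBS supernatant and 224, 212 and 227 CPM with IL-3 supernatant (log2 0.03, SE 0.05). Dars (aspartate) was at 175, 169 and 171 CPM with PBS supernatant and 169, 179 and 163 CPM with IL-3 supernatant (log2 -0.01, SE 0.05), and in each of these genes the groups overlapped. Mars1 (methionine) was at 221, 261 and 248 CPM with PBS supernatant and 263, 249 and 272 CPM with IL-3 supernatant (log2 0.10, SE 0.06), where PBS replicate 1 was the lowest of the 6 libraries and PBS replicate 2 was above an IL-3 value. In all, the 3 IL-3 values lay above the 3 PBS values in 14 of 20 cytosolic genes and below them in 2, where 21.0% and 22.6% of all genes tested did so (43.6% in either direction).

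**Figure D2:**
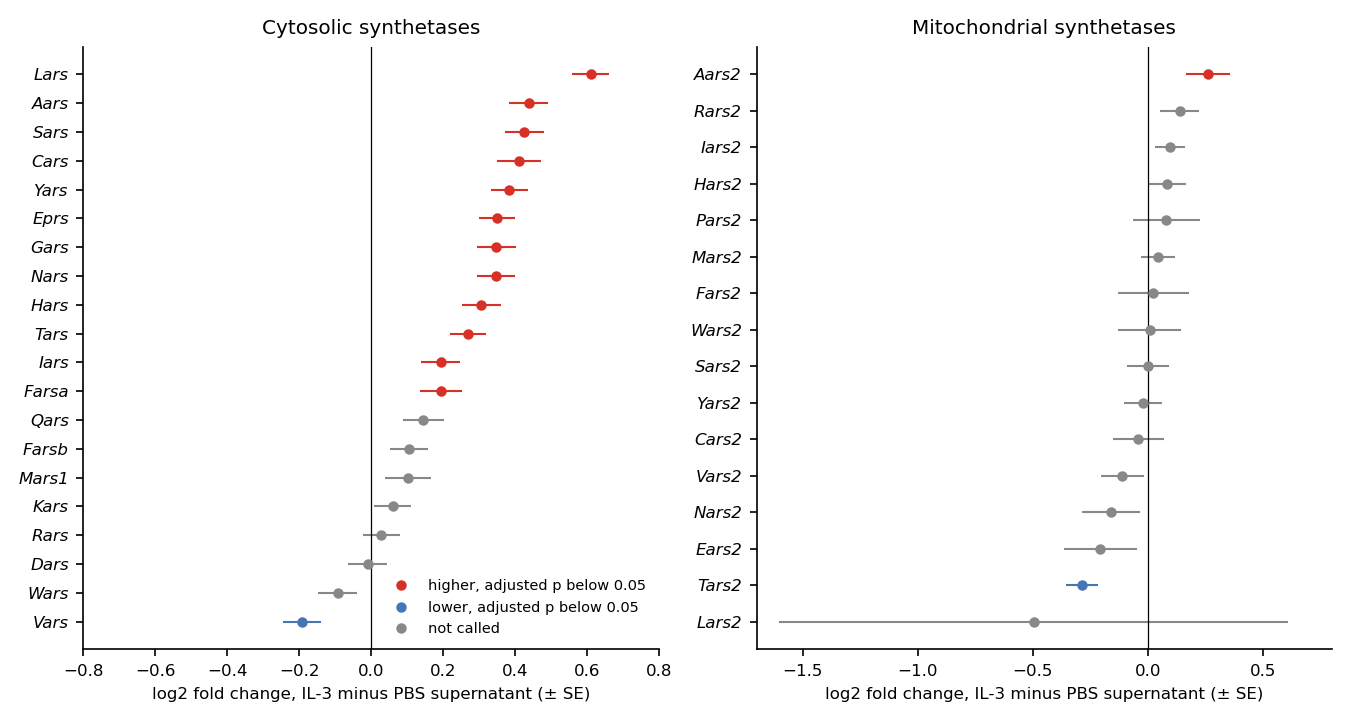
Points give the log2 fold change of each member (IL-3 minus PBS supernatant, edgeR) with bars of 1 SE, red where higher, blue where lower and grey where not called. The 12 red cytosolic points lie between 0.19 and 0.61, the mitochondrial points other than Lars2 lie between -0.29 and 0.26, and the Lars2 bar of ± 1.11 is the widest.

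Members of the multi-synthetase complex and free enzymes were called at different counts, and the difference was not tested. In the complex, 3 of 8 genes (Eprs, Iars and Lars) rose, none fell and the median log2 fold change was 0.12, and among the 12 free ones 9 rose, 1 fell and the median was 0.33. Over all genes tested the shares were 14.8% higher and 16.1% lower. The complex holds both the member with the highest fold change, Lars, and Dars, Rars and Kars, whose values lay within 0.06 of 0. By catalytic fold, 4 of 9 class I enzymes rose and 1 fell (median 0.15), 7 of 10 class II enzymes rose (median 0.29), and Eprs, of both classes, rose.

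The starts of the cytosolic genes were searched for the C/EBP-ATF response element, the composite site through which ATF4 acts, because many of these genes moved together. RefSeq promoter windows (GRCm38.p6, 250 bases before to 50 after the start site) were at hand for 13 cytosolic and 14 mitochondrial members. The letters TGATGNAA, on either strand, were present in 5 of the 13 cytosolic windows (Aars, Gars, Iars, Tars and Yars) and 0 of the 14 mitochondrial ones, against 3.97% of all 32851 windows. All 5 genes had risen. They are 5 of the 8 risen cytosolic genes with a window, and 0 of the 5 uncalled ones had the letters. Below, 1 match is shown for each gene, with the matched letters in capitals (as TTNCATCA where the match is on the other strand), with 10 bases on each side, read along the gene, and Asns, which encodes asparagine synthetase, is shown for comparison.
Aars (chr8:111033841-111033868, + strand, match at 10 to 17 from the start site): gcgggtcactTTTCATCAgagcgctctg
Gars (chr6:55037961-55037988, + strand, match at -30 to -23): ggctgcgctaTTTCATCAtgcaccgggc
Iars (chr13:49682127-49682154, + strand, match at 8 to 15): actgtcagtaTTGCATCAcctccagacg
Tars (chr15:11399656-11399683, - strand, match at -15 to -8): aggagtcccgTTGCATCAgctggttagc
Yars (chr4:129189896-129189923, + strand, match at 4 to 11): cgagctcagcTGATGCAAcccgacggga
Asns (chr6:7693215-7693242, - strand, match at -23 to -16): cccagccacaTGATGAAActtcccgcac
A match is a description of letters and not of binding. For Aars the start site is RefSeq's (111033842), which lies 698 bases after the start of the GENCODE transcript Aars-203 and 60 before that of Aars-201, so its position relative to the start is uncertain. Sars, Eprs and Farsa rose without the letters in their windows, and Lars, Cars, Hars and Nars are the genes that rose with no window in the table used. The E-box CACGTG, the site of MYC and its partners, was present in 4 of the 13 cytosolic windows (Aars, Farsb, Iars and Tars), 1 of the 14 mitochondrial ones (Ears2) and 7.15% of all windows. It was in 3 of the 8 risen cytosolic genes with a window and 1 of the 5 uncalled ones, and Aars, Iars and Tars held both motifs, at places that do not overlap.

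Levels can be compared between genes on the length-scaled TPM. Among cytosolic genes the group means with PBS supernatant ran from 105 ± 5.23 TPM for Cars to 356 ± 12.5 TPM for Gars (SD, n = 3). Kars at 355 ± 9.36 TPM was level with Gars within the SD, and Nars (303 ± 18.5) and Sars (296 ± 25.3) came next and did not differ beyond theirs. Vars, Eprs, Rars, Iars, Tars, Hars, Mars1, Dars, Farsb, Qars, Aars, Yars, Wars, Farsa, Lars and Cars followed. With IL-3 supernatant Gars stayed first at 461 ± 30.1 TPM, Sars (392 ± 19.1), Nars (392 ± 8.23) and Kars (375 ± 13.1) came next, Sars not differing from Kars beyond its SD, Vars went from the fifth to the ninth place, Lars from the 19th to the 13th (106 ± 1.45 TPM with PBS supernatant and 165 ± 3.15 TPM with IL-3 supernatant), and Wars became last at 112 ± 3.32 TPM. Mitochondrial synthetases were far less abundant. Leaving out Lars2, described below, their means with PBS supernatant ran from 6.40 ± 0.835 TPM (Wars2) to 65.3 ± 2.74 TPM (Tars2).

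The 20 cytosolic genes together held 3887, 3724 and 3777 TPM with PBS supernatant and 4569, 4361 and 4596 TPM with IL-3 supernatant, a ratio of group means of 1.19. All 16 mitochondrial genes held 779, 2389 and 617 TPM and 1379, 1093 and 611 TPM, means of 1262 ± 979.9 and 1028 ± 388 TPM with overlapping groups (ratio 0.814), and Lars2 alone held 2025 of the 2389 TPM in PBS replicate 2. With Lars2 left out, a choice made after its values were seen, the 15 others held 373, 365 and 373 TPM with PBS supernatant and 375, 363 and 372 TPM with IL-3 supernatant, a ratio of 1.00. Cytosolic TPM over that of these 15 genes was thus 10.4, 10.2 and 10.1 in the PBS libraries and 12.2, 12.003 and 12.3 in the IL-3 libraries, with no overlap.

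Aars2, the mitochondrial alanine enzyme, was the mitochondrial gene called higher. It stood at 22.03, 24.9 and 24.4 CPM with PBS supernatant and 31.2, 27.6 and 26.7 CPM with IL-3 supernatant, with all IL-3 values above all PBS values (log2 0.26, SE 0.10, edgeR adjusted p = 0.0474). The call was lost when any 1 of the 6 libraries was left out (adjusted p from 0.050 to 0.20), by DESeq2 (adjusted p = 0.070), by limma-voom (adjusted p = 0.057) and with the replicate number as a block (adjusted p = 0.081). Tars2, for threonine, fell, with values of 74.7, 85.3 and 76.5 CPM with PBS supernatant and 68.9, 61.7 and 63.5 CPM with IL-3 supernatant and no overlap (log2 -0.29, SE 0.07, adjusted p = 0.0048). Tars2 kept the call in edgeR on counts when any 1 library was left out. It lost the call in limma on log2(TPM + 1) without PBS replicate 2 (adjusted p = 0.12) or without a filter (adjusted p = 0.078). It also lost the call in the test against a fold of 1.2. Its cytosolic counterpart Tars rose in the same libraries.

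IL-3 values lay above the PBS values in 1 of the 16 mitochondrial genes and below them in 1. Among all genes tested the shares were 21.0% and 22.6%. The other 13 mitochondrial genes besides Lars2 overlapped between groups and did not pass. Iars2 was the most abundant of them in counts, at 125, 125 and 143 CPM with PBS supernatant and 139.7, 134 and 146 CPM with IL-3 supernatant (log2 0.10, SE 0.06). Rars2, for arginine, was at 36.1, 34.0 and 33.5 CPM with PBS supernatant and 34.7, 40.2 and 39.1 CPM with IL-3 supernatant (log2 0.14, SE 0.08), with IL-3 replicate 1 among the PBS values. Mars2, the mitochondrial methionine enzyme, was at 53.1, 47.7 and 49.5 CPM with PBS supernatant and 50.3, 53.9 and 50.9 CPM with IL-3 supernatant (log2 0.05, SE 0.07), and Yars2, for tyrosine, at 38.9, 39.6 and 40.1 CPM with PBS supernatant and 40.7, 40.8 and 35.3 CPM with IL-3 supernatant (log2 -0.02, SE 0.08). Hars2, for histidine, was at 34.8, 34.2 and 31.9 CPM with PBS supernatant and 37.5, 34.7 and 34.7 CPM with IL-3 supernatant (log2 0.08, SE 0.08). These genes were steady across libraries, with overlapping groups.

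The remaining mitochondrial genes were less abundant. Vars2, for valine, was at 28.4, 35.4 and 30.5 CPM with PBS supernatant and 28.0, 29.1 and 30.2 CPM with IL-3 supernatant (log2 -0.11, SE 0.09), with PBS replicate 2 the highest. Sars2, for serine, was at 25.8, 30.3 and 28.1 CPM with PBS supernatant and 26.3, 28.1 and 29.8 CPM with IL-3 supernatant (log2 0.00, SE 0.09), and Cars2, for cysteine, at 17.9, 23.2 and 18.8 CPM with PBS supernatant and 18.6, 19.4 and 20.2 CPM with IL-3 supernatant (log2 -0.04, SE 0.11), again highest in PBS replicate 2. Nars2, for asparagine, was at 18.4, 14.5 and 13.8 CPM with PBS supernatant and 14.99, 13.8 and 13.1 CPM with IL-3 supernatant (log2 -0.16, SE 0.13), with PBS replicate 1 alone above the other 5 libraries. The enzymes for tryptophan and phenylalanine were lower still, and in both the groups covered a similar range. Wars2 was at 13.5, 14.2 and 10.7 CPM with PBS supernatant and 11.1, 14.2 and 13.3 CPM with IL-3 supernatant (log2 0.01, SE 0.14) and Fars2 at 10.8, 12.2 and 15.1 CPM with PBS supernatant and 15.7, 11.2 and 11.8 CPM with IL-3 supernatant (log2 0.02, SE 0.15). Pars2, for proline, was at 9.35, 8.26 and 10.4 CPM with PBS supernatant and 8.65, 10.9 and 9.96 CPM with IL-3 supernatant (log2 0.08, SE 0.14). Ears2, for glutamate, was at 7.40, 10.4 and 8.27 CPM with PBS supernatant and 7.52, 7.29 and 7.81 CPM with IL-3 supernatant (log2 -0.21, SE 0.16), where PBS replicate 2 was the highest. Precision was lower for the mitochondrial genes than for the cytosolic ones. The median SE was 0.09 over the 15 mitochondrial genes other than Lars2, at a median of 28.1 CPM, against 0.05 over the cytosolic genes at 261 CPM. Of all tested genes within the mitochondrial range of means (8.12 to 136 CPM) 33.5% were called, and of those within the cytosolic range (118 to 608 CPM) 38.0%.

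Lars2, annotated as the mitochondrial leucine enzyme, varied between libraries more than any other member. It stood at 798, 4250.4 and 485 CPM with PBS supernatant and 1999, 1453 and 468 CPM with IL-3 supernatant, a 9.07-fold range over the libraries, where the other 35 members ranged from 1.07-fold to 1.59-fold. High and low values occurred in both groups (log2 -0.50, SE 1.11, edgeR adjusted p = 0.80), and without PBS replicate 2 the estimate changed sign to 1.04 (adjusted p = 0.47). The ribosomal RNA gene CT010467.1 (annotated on chromosome 17) stood at 6092, 46832 and 4286 CPM with PBS supernatant and 21918, 12722 and 4306 CPM with IL-3 supernatant. Its order over the libraries was that of Lars2, except for the lowest pair, PBS replicate 3 and IL-3 replicate 3, which changed places. The neighbouring noncoding genes Gm26917, at 288, 1036 and 235 CPM with PBS supernatant and 656, 479 and 199 CPM with IL-3 supernatant, and Gm42418, at 168, 719.8 and 124 CPM with PBS supernatant and 399, 275 and 112 CPM with IL-3 supernatant, had the same order as Lars2 throughout. AY036118, in the same cluster, did not, being highest in PBS replicate 1 (371 CPM) and second highest in IL-3 replicate 2 (324 CPM).

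The Lars2 values therefore moved with ribosomal RNA genes across libraries, and how much of them comes from leucyl-tRNA synthetase transcript was not tested. The isoform table of PBS replicate 2 lists 1 Lars2 transcript, Lars2-201. Of all GENCODE M21 genes only Gm15564, a noncoding gene on chromosome 16, shared a stretch of at least 50 bases at 95% identity or more with it by BLAST, of 72 bases (positions 3278 to 3349 of 3894) at 98.6% identity, and Gm15564 was listed at 0 counts in all 6 libraries. For this reason the pair of Lars and Lars2 is not described further.

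**Figure D3:**
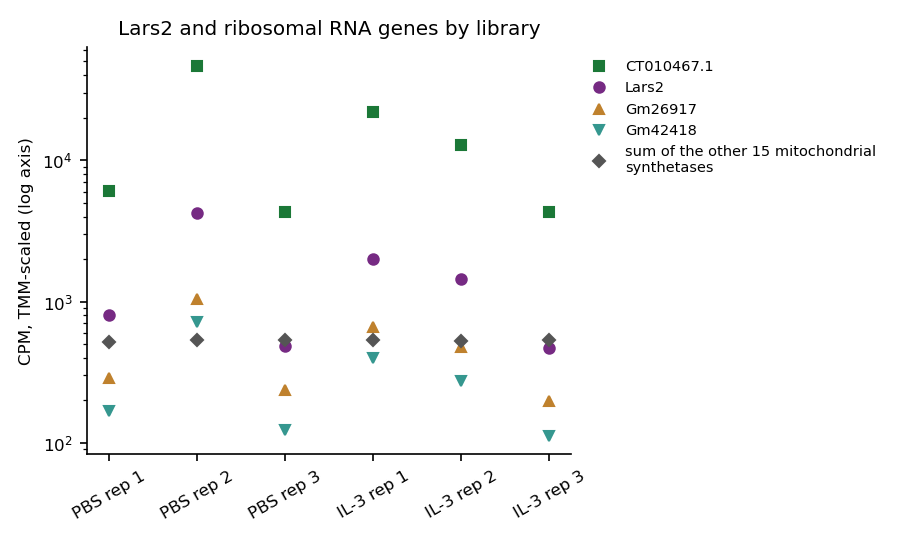
CPM (TMM-scaled, log axis) by library for Lars2, the ribosomal RNA gene CT010467.1, the noncoding genes Gm26917 and Gm42418, and the sum of the other 15 mitochondrial synthetases. All but the grey sum, which stays between 516 and 539 CPM, are highest in PBS replicate 2, where Lars2 is at 4250 CPM.

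Each of 15 mitochondrial synthetases was set against the cytosolic gene for the same amino acid, with the difference of log2 CPM taken within each library, which removes library size. Fars2 was left out, since its cytosolic counterpart has separate subunits, and Eprs was paired with both Ears2 and Pars2. In 7 pairs the 3 IL-3 differences lay above the 3 PBS differences, and in none below, while 22.7% of all ordered pairs of tested genes lay above, and by symmetry the same share below. For Tars over Tars2 the log2 difference was 1.86, 1.63 and 1.72 with PBS supernatant and 2.21, 2.35 and 2.31 with IL-3 supernatant, a shift of 0.55. Eprs over Ears2 shifted by 0.54, Nars over Nars2 by 0.50, Cars over Cars2 by 0.44, Sars over Sars2 by 0.42, Yars over Yars2 by 0.41 and Hars over Hars2 by 0.22. All 7 are at p = 0.10 in the exact two-sided permutation test, the smallest that 3 against 3 libraries allow (Benjamini-Hochberg adjusted p = 0.21 over 15 pairs), so no single pair could pass. Eprs over Pars2 (0.27), Iars over Iars2 (0.09) and Mars1 over Mars2 (0.06) overlapped, as did Aars over Aars2 (0.18), both of whose genes were called higher. Rars over Rars2 (-0.11), Wars over Wars2 (-0.10) and Vars over Vars2 (-0.09) leaned the other way and overlapped.

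**Figure D4:**
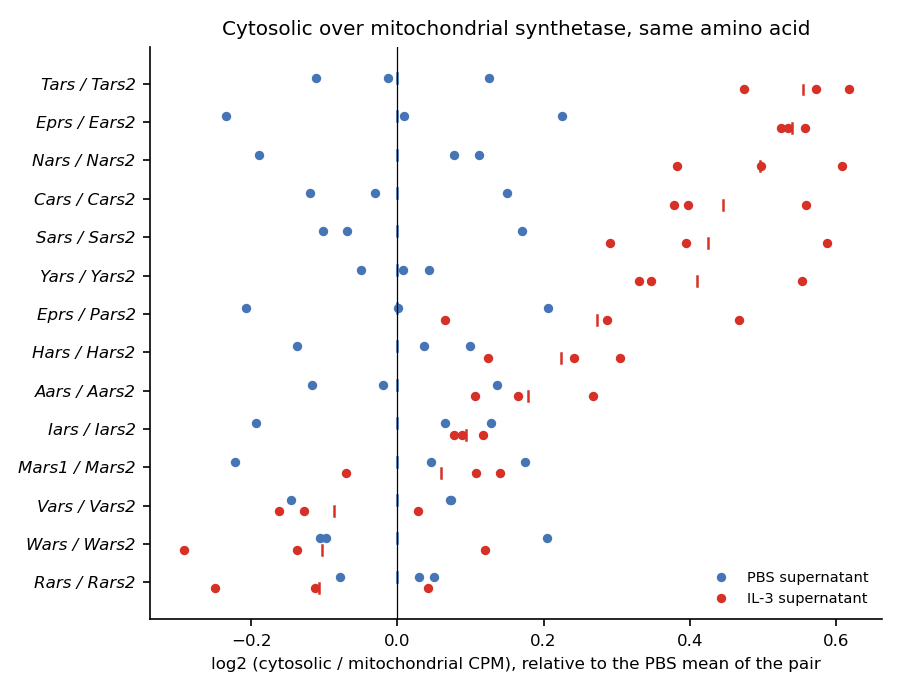
For each pair, points give log2 of cytosolic over mitochondrial CPM in each library, set to 0 at the PBS mean of the pair, blue for PBS and red for IL-3 supernatant, with ticks at group means. The red points lie wholly to the right of the blue ones in 7 of the 14 pairs drawn (Lars and Lars2 not drawn), with the shift of 0.55 for Tars over Tars2 at the top.

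Several members lie close to each other or to other genes. Hars and Hars2 are head to head on chromosome 18 and their gene models overlap by 195 exonic bases. Hars rose while Hars2 did not pass (log2 0.08, SE 0.08), and the shift of their difference by 0.22 is given above. Eprs and Iars2 lie 33648 bases apart on chromosome 1, and Eprs rose while Iars2 did not pass. Mars1 on chromosome 10 shares 68 exonic bases with Ddit3 on the other strand, and Ddit3, which encodes the stress factor CHOP, went from 10.9, 8.92 and 10.2 to 18.3, 16.9 and 17.8 CPM (log2 0.82, SE 0.12, edgeR adjusted p = 3.9e-05) while Mars1 did not pass. In GENCODE M21, 13 of the 36 members share exonic bases with a gene on the opposite strand, and since the library kit does not mark strand, reads from shared bases cannot be told apart. On the same strand, Aars shares 1326 exonic bases with Exosc6, for which no entry was found by symbol among the gene identifiers. Whether part of the Aars counts comes from Exosc6 transcripts was not tested. The longest overlap on the opposite strand is 2034 bases, between Iars2 and Rab3gap2, which rose by log2 0.25. Fars2 shares 501 bases with Nrn1, which fell by 1.95 on the log2 scale from 76.4 to 19.7 CPM, so the value of Fars2 is uncertain.

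The other genes of the charging pathway were followed as lists, which were chosen with earlier results of these data known. Of 28 tested genes of ATF4 and its non-synthetase targets, 25 rose and none fell (median log2 0.83). Of all genes tested, 14.8% rose and 16.1% fell. Asns went from 103, 98.3 and 82.2 to 250.4, 226 and 226 CPM, with every IL-3 value far above every PBS value (log2 1.31, SE 0.08, edgeR adjusted p = 1.4e-08). Cth, of cysteine synthesis, had log2 2.18, SE 0.08, Aldh1l2, of mitochondrial folate metabolism, 2.58, SE 0.19, and the leucine sensor gene Sesn2 1.02, SE 0.08. Atf4 itself went from 428, 431 and 393 to 597, 549.9 and 583 CPM (log2 0.47, SE 0.05, adjusted p = 4.8e-06), a change of the size seen in Aars and Sars. The 3 genes that did not pass, named for that reason after their values were seen, were Phgdh, the first enzyme of serine synthesis (log2 0.01, SE 0.05), Cebpb (0.11, SE 0.52) and Mthfd1l (-0.14, SE 0.05). Of this list, 9 of 25 genes with a promoter window held TGATGNAA.

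Amino acid transporters rose more often than they fell, while stress kinases were called in both directions. Of 14 tested amino acid transporters 7 rose (50%) and 1 fell (7.14%), against 14.8% and 16.1% of all genes (median log2 0.24). Slc7a11, which rose, is counted both here and in the ATF4 list. The arginine and lysine transporter Slc7a3 (log2 2.01, SE 0.11), the glycine transporter Slc6a9 (0.95, SE 0.13) and the neutral transporter Slc1a4 (0.53, SE 0.10) rose, and Slc43a2, of large neutral amino acids, fell (-0.62, SE 0.10). Among 9 kinases, phosphatases and regulators of the integrated stress response 2 rose and 2 fell, counts near the 14.8% and 16.1% of all genes. Eif2ak4 (GCN2, the sensor of uncharged tRNA) went from 38.3 ± 5.51 to 48.4 ± 6.05 CPM (log2 0.34, SE 0.11, edgeR adjusted p = 0.042) and Ppp1r15a, a feedback phosphatase subunit, had log2 0.35, SE 0.10, while Eif2ak2 (PKR) fell by 0.36 and Eif2ak1 by 0.20 on the log2 scale.

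MYC is another known activator of synthetase genes. Of 9 tested genes of the MYC, MAX and MLX network, which includes antagonists of MYC (Mxd1, Mxd3, Mxd4 and Mnt), 6 fell and none rose (median log2 -0.34). Among all genes tested 16.1% fell and 14.8% rose. Mxd1, Mnt and Mlx, named with Mxd4 after their values were seen, did not pass. Myc went from 502, 494 and 458 to 417, 391 and 444 CPM (log2 -0.22, SE 0.06, edgeR adjusted p = 0.0088) with no overlap, and its partner Max from 148 ± 14.1 to 82.7 ± 2.30 CPM (log2 -0.84, SE 0.07). Mycn (log2 -2.16, SE 0.35), Mxd3 (-0.91, SE 0.20), Mxd4 (-0.47, SE 0.14) and Mlxip (-0.34, SE 0.06), the partner of Mlx, fell too.

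Genes that act beside the synthetases were called in some lists and not in others. For comparison, 14.8% of all genes tested were higher and 16.1% lower. Of the scaffold genes of the complex, Eef1e1 rose (log2 0.18, SE 0.06, edgeR adjusted p = 0.024), Aimp2 fell (-0.19, SE 0.07, adjusted p = 0.0497) and Aimp1 did not pass (0.07, SE 0.07). None of 4 editing factors (Aarsd1, Prorsd1, Dtd1 and Dtd2), which remove wrongly joined amino acids, was called, nor was any of Qrsl1, Gatb, Gatc and Mtfmt, which finish mitochondrial glutaminyl-tRNA and formylate the initiator. In these lists Gatb alone had an edgeR quasi-likelihood value below 0.05 before adjustment (Benjamini-Hochberg adjusted p = 0.074), and neither DESeq2 nor limma-voom called any of the 8 genes. Of 20 tested genes of tRNA maturation and export 1 rose, the tRNA exporter Xpot (244 ± 16.7 to 301 ± 9.30 CPM, log2 0.30, SE 0.06), and 1 fell, the methyltransferase gene Trdmt1 (-0.46, SE 0.16). RNA polymerase III, which transcribes tRNA genes, had 3 higher (15.8%) and 6 lower (31.6%) of 19 genes. The higher count is thus near the 14.8% of all genes, and the lower count is above the 16.1% of all genes. Gtf3c5 (-0.34, SE 0.07), Gtf3a (-0.33, SE 0.07), Brf1 (-0.37, SE 0.09) and Polr3b (-0.27, SE 0.07) were the lower ones with the smallest p, and the 3 higher ones, named after their values were seen, were Polr3a (0.22, SE 0.07), Polr3d (0.20, SE 0.07) and Bdp1 (0.19, SE 0.05). Of 7 cytosolic elongation factor genes 1 fell, the kinase gene Eef2k (-0.26, SE 0.09), and of 11 mitochondrial translation factors 1 rose, Gfm2 (0.27, SE 0.08).

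**Figure D5:**
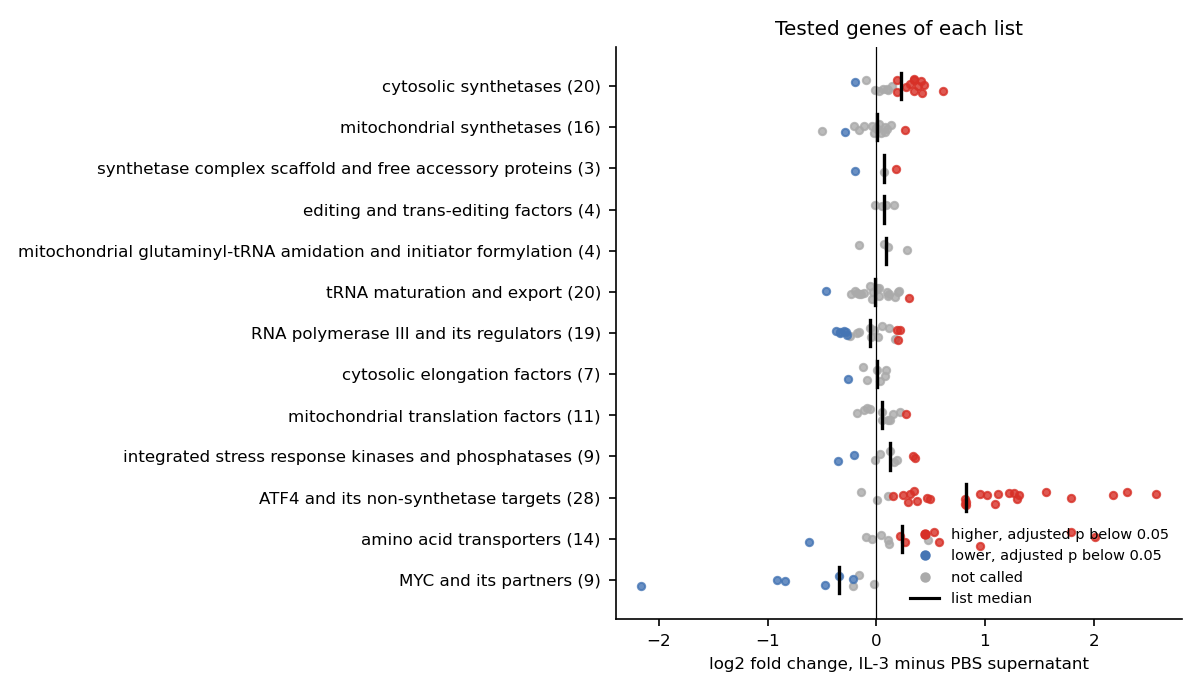
Each point is the log2 fold change of 1 tested gene (IL-3 minus PBS supernatant), red where higher, blue where lower and grey where not called, with a black tick at the median of its list. Of the 20 cytosolic synthetases (median 0.23) 17 lie to the right of 0 and the mitochondrial ones (median 0.00) around it, while the ATF4 list has a median of 0.83 and the MYC list one of -0.34.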

How the data were processed

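Poly(A) RNA of 6 CD8 T cell libraries (3 per group) was prepared with the TruSeq RNA v2 kit, per the labels' protocols. The deposited tables give, per gene, RSEM expected counts and TPM computed by the authors, and PBS replicate 2 also has an isoform table, which is the source of its TPM (99.7% of its TPM matched a gene). Bowtie2 2.2.0, RSEM 1.2.12, edgeR 3.20.9 and GRCm38 are named in the submitters' processing notes, while settings, annotation and strand option were not given in the sources used here. The members and gene lists were chosen with earlier results of these data known.

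Expected counts were rounded, genes with low counts were removed (filterByExpr, 12407 of 46517 kept), and edgeR 4.0.16 (TMM, robust quasi-likelihood, group as the term) was run in R 4.3.3 over all genes, with Benjamini-Hochberg adjusted p below 0.05 as the call. CPM are TMM-scaled. Symbols were present for 46005 identifiers, and positions are from GENCODE M21 (GRCm38). DESeq2 1.42.0, limma 3.58.1 (limma-voom, and log2 of TPM plus 1 or 0.1), other scalings and filters, a fold threshold, a replicate block and leaving out each library were the alternatives. Named genes are all 36 members, up to 4 genes of smallest p per list, and Atf4, Myc, Ddit3 and Asns, with others only where a result turns on them. No pair of replicates agreed within sampling noise (chi-square per gene 13.4 to 63.8). These values include the ribosomal RNA gene CT010467.1, which varied widely between libraries, and its part in them was not tested. Promoter windows are RefSeq's, and Cars, Hars, Lars, Nars, Rars, Vars, Wars, Hars2 and Pars2 had no entry. BLAST+ 2.17.0 compared Lars2 with other transcripts.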

Additional observations from a re-analysis of the deposited data

How the results depend on the processing

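Of the 13 cytosolic calls, 5 (Lars, Aars, Sars, Cars and Yars) kept their call in all 20 alternatives, and none of the 15 called members reversed. Cytosolic genes called higher numbered 12, 10 to 13 when a library was left out, and 5 in the test against a fold of 1.2. Cytosolic genes called lower numbered 1, 0 to 1 when a library was left out, and 0 with TPM and no filter, with TPM in 5 libraries (without PBS replicate 2), in the test against a fold of 1.2 and at adjusted p below 0.01. Mitochondrial genes called higher numbered 1, and 0 when any library was left out, with DESeq2, limma-voom and every TPM analysis, in the test against a fold of 1.2 and at adjusted p below 0.01. Mitochondrial genes called lower numbered 1, and 0 with TPM and no filter, with TPM in 5 libraries and in the test against a fold of 1.2. Over all genes, 1834 were higher, against 1103 with TPM and no filter, 1103 with TPM in 5 libraries, 928 against a fold of 1.2 and 1217 at adjusted p below 0.01, and 1456 to 1916 with a library left out. In the other direction 2001 were lower, against 1327 with log2(TPM + 0.1), 1030 with TPM and no filter, 1274 with TPM in 5 libraries and 937 against a fold of 1.2, and 1601 to 2102 with a library left out. Pairs with IL-3 differences wholly above numbered 7 (7 to 9 with a library left out) and wholly below 0 (0 to 2). The cause of these shifts was not tested, beyond the fewer libraries or stricter threshold of the alternative itself. Library size alone moved the median of all genes to 0.02 and that of the cytosolic genes to 0.25. Leaving out CT010467.1, chosen after seeing the data, changed no call of a member.

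Deviations of same-numbered libraries from their group means had correlations of -0.15, 0.05 and 0.25, and differently numbered ones ran from -0.28 to 0.26. With 3 libraries per group, these values cannot tell whether same-numbered libraries share a mouse, culture or batch. With the replicate block, 12 cytosolic genes were higher and 1 lower, the same 13 genes, the mitochondrial genes were 0 higher and 1 lower, and 1634 and 1776 of all genes were called. Precision is limited by 3 libraries per group and by SE of 0.06 to 0.16 for the mitochondrial genes other than Lars2.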
